A study of Bos taurus with 15 samples.

Results

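The genes described here are 10 markers of blood vessel endothelium and receptors of blood vessel growth: PECAM1, VWF, CDH5, TEK, KDR, FLT1, TIE1, ESAM, CLDN5 and ENG. They were measured in bovine testis on single-colour oligonucleotide arrays, in 8 cattle given the synthetic glucocorticoid prednisolone and 7 untreated controls. Treated animals received 30 mg per head daily by mouth for 35 days, the controls received nothing, and both groups were sampled at the slaughterhouse. The labels give neither breed nor age, and the series title calls the animals cows although the tissue is testis. Members were the array probes whose gene name, gene number, accession or description names one of the 10 genes. That found 10 probes for 9 of the 10 genes, out of 21475 probes on the array. VWF had 2 probes, the other 8 genes had 1 each, and no probe was named FLT1. All 10 member probes were among the 18492 probes tested, which stood for 13916 genes.

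Endothelial cells line every blood vessel. They are held together by junction proteins such as CDH5 (VE-cadherin), PECAM1, ESAM and the tight junction protein CLDN5, and they store the clotting protein VWF in their own granules. Vessel growth is steered through receptor tyrosine kinases: KDR and FLT1 bind VEGF, TEK binds the angiopoietins and TIE1 modulates TEK. ENG is a co-receptor for BMP9 and TGF-beta. In the testis the vessels run in the interstitium between the seminiferous tubules, beside the Leydig cells.

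A level below is the log2 processed signal minus the 75th percentile of its array, so levels of one probe can be set against each other across animals, and levels of different probes cannot. On 14 arrays that percentile lay between 1220 and 2780 intensity units and 82.16% to 89.94% of probes were well above background. The array of prednisolone 30 had a percentile of 49.8 and 36.45% of probes well above background. Its column in the authors' deposited table also did not follow its scanner file, with a correlation of gene-centred values of 0.0119, against 0.896 to 0.977 on the other arrays. Control 17 had an ordinary signal but stood apart at many genes, as described below. Results are therefore given for all 15 arrays and for the 13 without prednisolone 30 and control 17. Markers of the labelled tissue were present: all 12 spermatid, 10 Sertoli and 7 Leydig genes were well above background on each of the 14 arrays.

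No endothelial gene passed the test between prednisolone and control testis, on all 15 arrays or on the 13. In limma, 0 of 18492 probes had an adjusted p under 0.05 on all 15 arrays, or 0% of those tested, and likewise 0 on the 13. The smallest adjusted p among members was 0.883 on all 15 arrays and 0.931 on the 13. At an unadjusted p under 0.05 limma gave 457 probes, or 2.47%, and ENG was the only member gene among them. The signed differences of the members did lean one way: 8 of 9 genes were higher in prednisolone animals on all 15 arrays and 9 of 9 on the 13, against 51.9% and 51.5% of all genes tested. The median member difference was 0.17 on all 15 arrays and 0.25 on the 13, while the median over all genes was 0.01 in both. The size of that lean depended on single arrays. Without prednisolone 30 alone it was 0.03, with 6 of 9 genes higher against 52.4% of all genes, and without control 17 alone it was 0.33, with 9 of 9 higher against 50.2%. In whole-tissue RNA, more endothelial cells and more RNA per endothelial cell cannot be told apart.

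**Figure D1:**
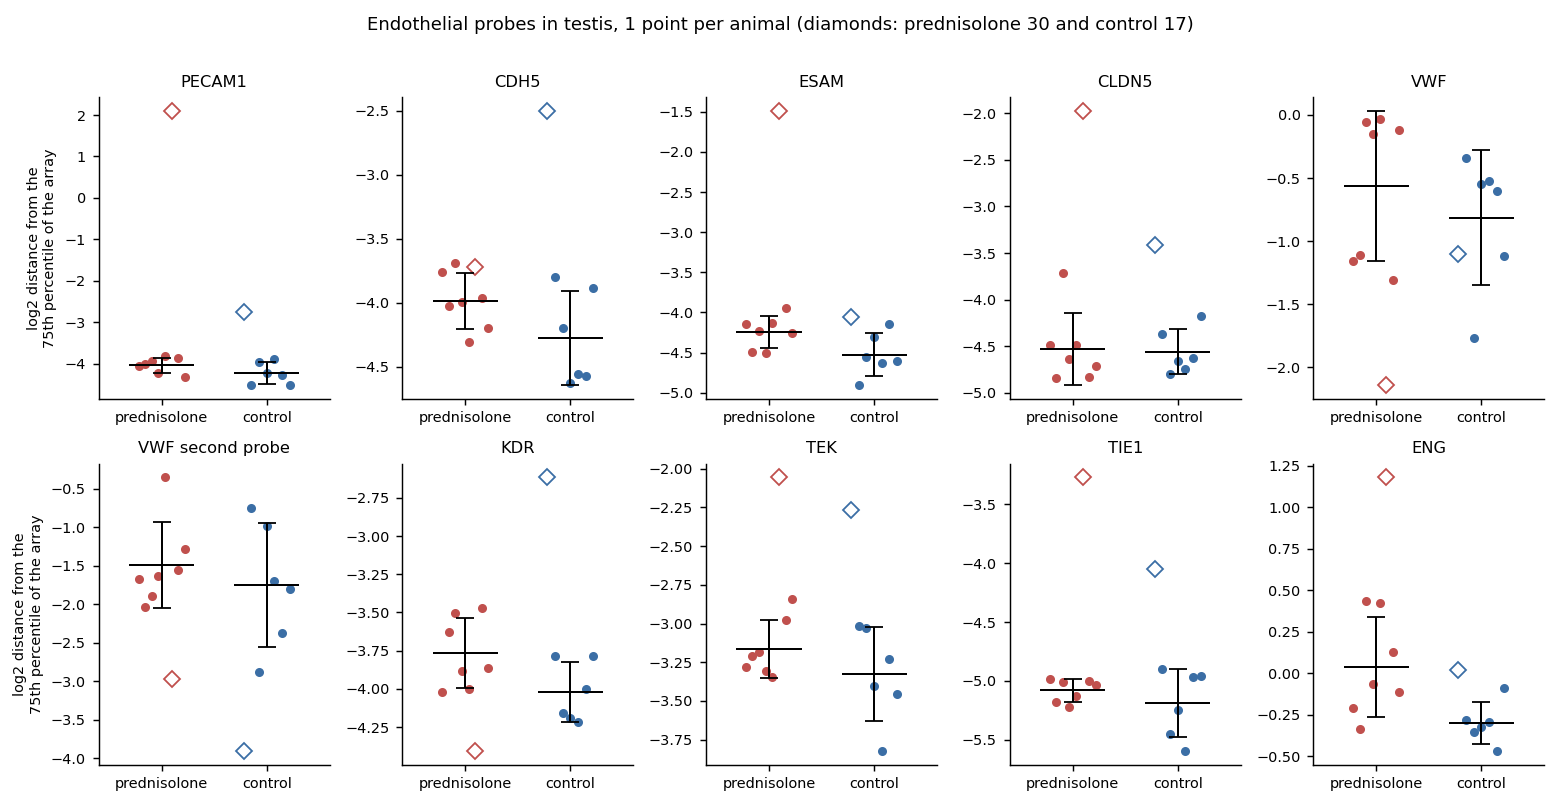
Levels of the 10 endothelial probes (vertical axis, log2 distance from the 75th percentile of the array), 1 point per animal, prednisolone left of control. Bars are the mean and SD of the 13 animals other than prednisolone 30 and control 17, which are drawn as diamonds. The groups overlap at every probe, the diamond of prednisolone 30 lies outside the range of the other prednisolone animals at every probe but CDH5, and that of control 17 lies outside the range of the other controls at every probe but the brighter one of VWF.

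Among the adhesion and junction genes, PECAM1 (CD31, which joins endothelial cells to each other and to passing leukocytes, probe A_73_104687) had a lowest, median and highest level of -4.32, -3.98 and 2.10 in prednisolone animals, against -4.51, -4.23 and -2.75 in controls. The highest value of each group belonged to prednisolone 30 and to control 17, and the groups overlapped. Without those animals PECAM1 averaged -4.04 ± 0.18 in 7 prednisolone animals and -4.23 ± 0.26 in 6 controls (SD). The difference was 0.75 on all 15 arrays (95% interval -0.89 to 2.39, limma adjusted p = 0.883) and 0.20 on the 13 (-0.09 to 0.48, adjusted p = 0.931). In the 13, 6 of 7 prednisolone animals lay above the control mean.

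CDH5, the cadherin of endothelial adherens junctions (probe A_73_105534), had levels of -4.31, -3.98 and -3.69 (lowest, median, highest) in prednisolone animals, against -4.63, -4.20 and -2.50 in controls. Control 17 was the highest of all 15 animals, 1.77 above the mean of the other controls. Without control 17 the controls formed a lower trio (animals 21, 22 and 23) and a higher trio (animals 18, 20 and 24) within the prednisolone range. The difference was 0.06 on all 15 arrays (limma adjusted p = 0.955) and 0.28 on the 13 (-0.06 to 0.63, adjusted p = 0.931).

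ESAM, an immunoglobulin-like adhesion molecule of endothelial tight junctions (probe A_73_116079), had levels of -4.51, -4.19 and -1.49 in prednisolone animals, against -4.90, -4.56 and -4.06 in controls. The top value was that of prednisolone 30. Without those arrays all 7 prednisolone animals lay above the control mean, 3 of them above the highest control. The difference was 0.56 on all 15 arrays (-0.22 to 1.33) and 0.28 on the 13 (-0.01 to 0.57), with limma adjusted p = 0.883 and 0.931.

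CLDN5, the claudin that seals endothelial tight junctions (probe A_73_120267), had levels of -4.84, -4.57 and -1.97 in prednisolone animals, against -4.80, -4.63 and -3.41 in controls. Here the groups lay over each other: on the 13 arrays only 3 of 7 prednisolone animals were above the control mean, and prednisolone 27 was the highest. The difference of 0.19 on all 15 arrays became 0.03 on the 13, with a 95% interval of -0.34 to 0.40 (limma adjusted p = 0.99).

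VWF, the clotting protein that endothelial cells and platelets store, was read by 2 probes. The brighter one (probe A_73_118403) had levels of -2.14, -0.63 and -0.03 in prednisolone animals, against -1.77, -0.60 and -0.34 in controls. On this probe the prednisolone animals split into 4 above every control (animals 27, 28, 29 and 32, between -0.15 and -0.03) and 4 at or below -1.11 (animals 25, 26, 30 and 31). Of these, prednisolone 30 was not well above background at this probe. The 4 upper animals lay on slides 4, 5, 6 and 7, and of the 4 lower ones 2 lay on slide 1, 1 on slide 4 and 1 on slide 7. The difference was 0.10 on all 15 arrays and 0.25 on the 13 (-0.34 to 0.85, limma adjusted p = 0.953).

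The second VWF probe (A_73_121290), named only by its description as similar to von Willebrand factor, had levels of -2.97, -1.66 and -0.35 in prednisolone animals, against -3.91, -1.80 and -0.75 in controls. Its highest animal was prednisolone 29 and its lowest control 17. The split of the brighter probe did not recur here. Prednisolone 27 and 28 (-1.89 and -1.64) lay below prednisolone 31 (-1.55), while prednisolone 29 and 32 (-0.35 and -1.28) were the highest of their group. The difference was 0.38 on all 15 arrays and 0.26 on the 13 (-0.45 to 0.97, limma adjusted p = 0.961). Across animals the 2 probes of VWF followed each other in part, with a Pearson correlation of 0.62 over the 13 arrays. Of all 10 member probes these 2 varied most between animals of a group, with SDs of 0.57 and 0.68 on the 13 arrays against 0.21 to 0.33 at the other 8.

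Among the receptors, KDR (VEGF receptor 2, the main signalling receptor for VEGF in endothelium, probe A_73_113242) had levels of -4.41, -3.87 and -3.47 in prednisolone animals, against -4.21, -4.00 and -2.62 in controls. Control 17 was the highest and prednisolone 30 the lowest of all animals, so the 2 arrays pulled the groups towards each other. The difference was -0.03 on all 15 arrays (-0.51 to 0.46, limma adjusted p = 0.977). Without them all 7 prednisolone animals lay above the control mean, 3 of them above the highest control. The difference was then 0.25 (-0.02 to 0.53, limma adjusted p = 0.931).

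TEK (the angiopoietin receptor, also called TIE2, probe A_73_101983) had levels of -3.34, -3.20 and -2.06 in prednisolone animals, against -3.82, -3.23 and -2.27 in controls. The top animals were again prednisolone 30 and control 17. Without these the prednisolone animals averaged -3.16 ± 0.19 and controls -3.33 ± 0.30 (SD), with control 22 the lowest. The difference was 0.15 on all 15 arrays and 0.16 on the 13 (-0.14 to 0.46, limma adjusted p = 0.932).

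TIE1, the receptor relative of TEK that pairs with it (probe A_73_121339), had levels of -5.22, -5.02 and -3.27 in prednisolone animals, against -5.60, -4.97 and -4.05 in controls. The 7 prednisolone animals of the 13 arrays lay within a narrow band (mean -5.08 ± 0.10, SD) inside the wider control range (-5.19 ± 0.29, n = 6). The difference was 0.17 on all 15 arrays and 0.11 on the 13 (-0.16 to 0.37, limma adjusted p = 0.957).

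ENG (endoglin, the co-receptor through which endothelium reads BMP9, probe A_73_107713) was the member with the smallest unadjusted p. Its levels were -0.33, 0.03 and 1.18 in prednisolone animals, against -0.47, -0.29 and 0.02 in controls. Prednisolone 27, 29, 30 and 31 lay above every control, and the other 4 prednisolone animals lay inside the control range. ENG was also the only member well above background on the array of prednisolone 30. The difference was 0.44 on all 15 arrays (0.01 to 0.86) and 0.34 on the 13 (0.05 to 0.63). The unadjusted limma p was 0.045 and 0.026, and the adjusted p was 0.883 and 0.931, so ENG did not pass. Without prednisolone 30 and control 17, 685 of 13916 genes, or 4.92%, had an unadjusted p under 0.05.

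**Figure D2:**
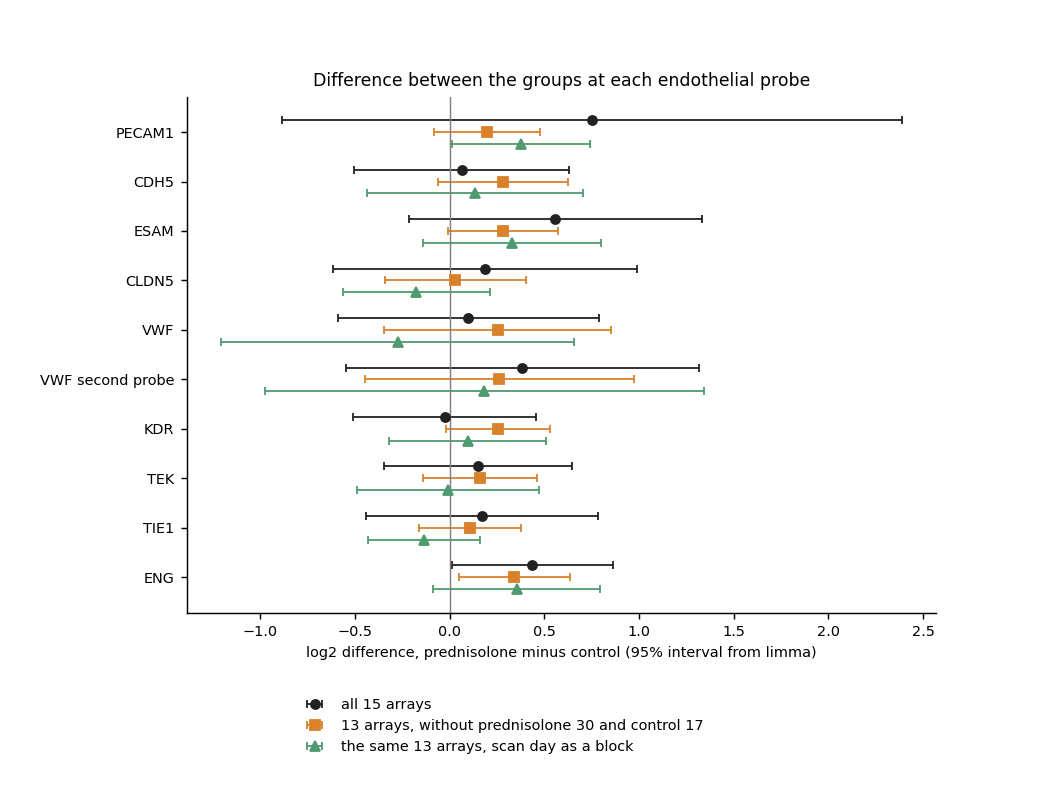
Difference between prednisolone and control at each endothelial probe (horizontal axis, log2, positive where prednisolone is higher), with 95% intervals from limma, for all 15 arrays, for the 13 without prednisolone 30 and control 17, and for those 13 with scan day as a block. All intervals hold 0 except those of ENG on 15 and 13 arrays and of PECAM1 with the block, and none of these passed after adjustment.

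Prednisolone 30 and control 17 decided most of what the 15 arrays show. The array of prednisolone 30 exceeded the highest of the other 7 prednisolone animals at PECAM1, ESAM, CLDN5, TEK, TIE1 and ENG. It lay 6.13 above their mean at PECAM1 and 2.75 above it at ESAM. It lay below all of them at KDR and at both VWF probes. The raw brightness of PECAM1 on that array was 73.05 units over a local background of 43, against 99.8 to 216.5 on the other 14. At 11 of its 20 member spots, Feature Extraction had put a substitute value in place of the background-subtracted signal, and it had done so at 0 of 280 member spots on the other 14 arrays. Its 2 spots of TEK differed by 5.36 on the log2 scale, and those of PECAM1 by 3.08, whereas no pair of member spots on the 13 arrays differed by more than 1.53. In the authors' deposited table, where the column of prednisolone 30 is not from this scanner file, PECAM1 in that column was 6.99 on the log2 scale, within the 6.73 to 7.12 of the other prednisolone animals. Which of the 2 measurements belongs to prednisolone 30 could not be settled.

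Control 17 was the highest of the 14 arrays other than prednisolone 30 at 6 of the 9 genes, against 19.7% of all genes tested. It exceeded the mean of the other 6 controls by 1.77 at CDH5, 1.48 at PECAM1, 1.41 at KDR, 1.15 at CLDN5, 1.13 at TIE1 and 1.06 at TEK. The excess was 0.47 at ESAM and 0.32 at ENG. VWF did not share it: the brighter VWF probe was 0.29 lower in control 17 than in the other controls on average, and the second VWF probe was 2.16 lower, the lowest of all 15 animals. The deposited table, which follows the scanner file for this animal, gave 8.12 for PECAM1 in control 17 against 6.35 to 7.05 in the other controls.

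Other marker lists moved with the endothelial genes in control 17. Its mean level, centred on each gene, was 1.78 for 10 genes of fibroblasts and matrix, 1.16 for 7 genes of lymphatic endothelium, 0.98 for 16 genes of pericytes and smooth muscle and 0.94 for 10 macrophage genes, and -0.85 for 12 genes of spermatids. Of these spermatid genes 10 were lowest in control 17, and of the fibroblast genes 9 were highest there, against 25.7% and 19.7% of all genes. The mean of the 9 endothelial genes was 0.83 in control 17 and lay between -0.23 and 0.04 in the other controls. The part of these other cell types in the endothelial levels of control 17 was not tested.

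**Figure D3:**
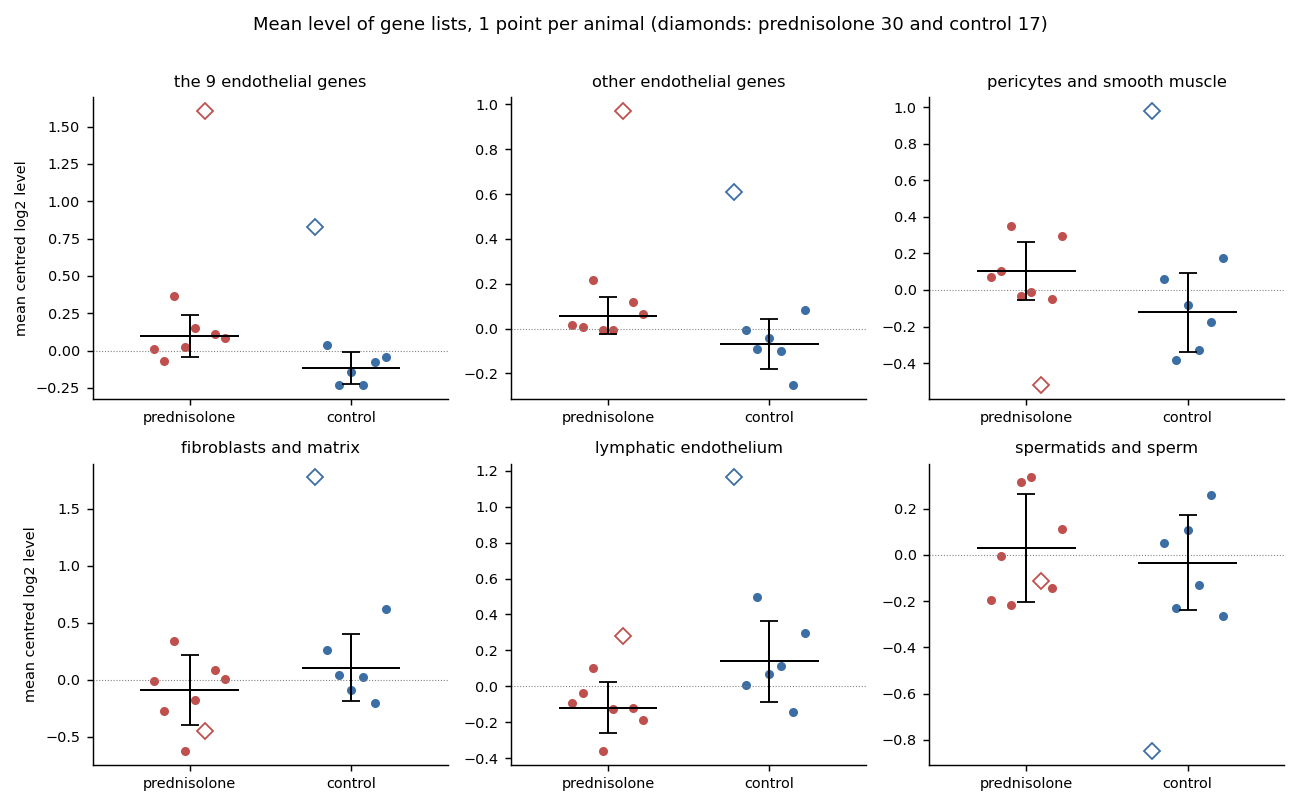
Mean level of 6 gene lists (vertical axis, log2, each gene centred on its mean over the 13 animals, scales differ between panels), 1 point per animal, prednisolone left of control, with the mean and SD of the 13 animals and diamonds for prednisolone 30 and control 17. Control 17 is high in the endothelial, smooth muscle, fibroblast and lymphatic panels and lowest in the spermatid panel.

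Slide and scan day bear on the same genes. Slides 1 and 4 held both groups, and scan day 1 held 6 prednisolone animals and 3 controls, while all other slides and days held 1 group. With prednisolone 30 and control 17 left out and scan day as a block, 5 of 9 genes were higher in prednisolone animals, against 50.4% of all genes, and the median member difference was 0.09. With slide as a block, 4 of 9 were higher, against 50.2%, and the median was -0.02. PECAM1, ESAM and ENG kept differences of 0.38, 0.33 and 0.35 with the day as a block and 0.47, 0.34 and 0.39 with the slide, with limma adjusted p between 0.415 and 0.67. TEK was at -0.01 with the day and -0.18 with the slide, and TIE1 at -0.13 and -0.18. The 9 of 9 genes higher on the 13 arrays thus held without a block and not with either block. With control 17 and prednisolone 30 included, the median was -0.11 with the day as a block and -0.06 with the slide.

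Within the slides that held both groups, and without prednisolone 30 and control 17, 3 of 9 genes were higher in prednisolone animals on slide 1, against 46.5% of all genes, and 6 of 9 on slide 4, against 52.3%. These are 2 prednisolone animals against 1 control on slide 1 and 1 against 1 on slide 4, with no test. On slide 1, PECAM1 was at -4.06 and -4.01 in prednisolone 25 and 26, against -4.51 in control 18. On slide 4, PECAM1 was at -3.82 in prednisolone 29, against -4.27 in control 23. PECAM1 was thus higher in prednisolone animals on both slides, while TEK (-0.23 and -0.11) and TIE1 (-0.19 and -0.16) were lower on both. KDR was nearly level, with differences of -0.04 and -0.005 between prednisolone and control, and VWF went opposite ways, -0.79 on slide 1 and 0.57 on slide 4.

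The members did not vary as one block between animals. Over the 13 arrays the closest pairs were CDH5 and KDR, with a Pearson correlation of 0.70, KDR and TIE1 with 0.60, CLDN5 and ENG with 0.55, CDH5 and TIE1 with 0.54, CDH5 and CLDN5 with 0.53, and TEK and TIE1 with 0.51. PECAM1 went with ESAM (0.49) and ENG (0.41), and against TIE1 (-0.48). Of the 28 pairs among the 8 genes other than VWF, 21 were positive, with a median of 0.38. Of the 16 pairs of a VWF probe with another gene, 10 were positive, with a median of 0.02 and a range of -0.14 to 0.42. The highest were those of ENG with the brighter VWF probe (0.42) and with the second (0.41). These values pool both groups, so a difference between the groups enters them. With each group centred on its own mean, CDH5 and KDR had 0.60 and CLDN5 and ENG 0.66. PECAM1 then had 0.33 with ESAM, 0.21 with ENG and -0.68 with TIE1. All these values are a description over 13 animals whose arrays share one scaling.

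One animal carried much of the joint variation. With control 17 included (14 arrays), all 28 pairs without VWF were positive with a median of 0.52, CDH5 and KDR reached 0.90, and the VWF pairs had a median of -0.22. With prednisolone 30 included as well, PECAM1 and ESAM reached 0.96, and 1 of the 16 VWF pairs was positive, with a median of -0.49.

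**Figure D4:**
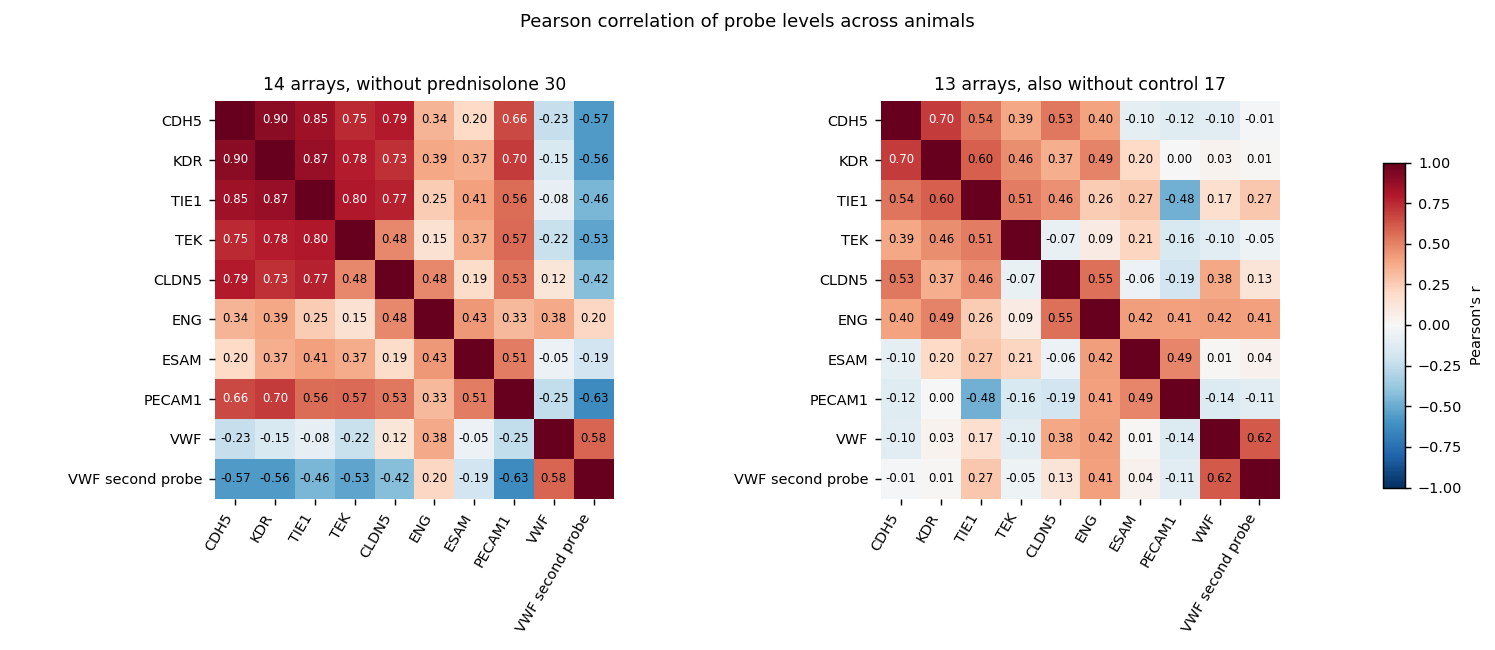
Pearson correlation between the levels of member probes across animals, over 14 arrays (left, without prednisolone 30) and 13 arrays (right, also without control 17), on a colour scale of -1 to 1. CDH5, KDR, TIE1 and TEK form the reddest corner in both, and the VWF probes correlate with each other (0.58 and 0.62) more than with most other members.

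The wider vessel programme was read from lists of related genes. Of 40 angiogenic ligands and co-receptors 35 were tested, and 0 passed in limma on all 15 arrays. Of the 35, 22 were higher and 13 lower in prednisolone animals, against 51.9% of all genes higher, with a median difference of 0.15. At an unadjusted p under 0.05 there was 1 of 35, against 2.42% of all genes. On the 13 arrays 25 of 35 were higher, against 51.5% of all genes, and the median was 0.12. Of these 35 genes, 5 had an unadjusted p under 0.05, against 4.92% of all genes. Of 67 other endothelial genes 59 were tested and 0 passed, with 40 higher on all 15 arrays, against 51.9% of all genes, and a median of 0.09. With the 13 arrays 47 of 59 were higher, against 51.5% of all genes, with a median of 0.11. Of the 59 genes, 6 had an unadjusted p under 0.05, all of them higher, against 2.79% of all genes that were higher at that p. Of 35 genes of signalling downstream of the receptors 33 were tested and 0 passed, with 12 higher and 21 lower on all 15 arrays and 17 higher and 16 lower on the 13.

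Among the ligands and co-receptors with the smallest unadjusted p, DLL4, the Notch ligand of sprouting endothelial tip cells, had levels of -5.49, -4.96 and -3.78 in prednisolone animals, against -5.82, -5.54 and -4.73 in controls. Its difference was 0.61 on all 15 arrays and 0.57 on the 13 (0.28 to 0.87). The Notch ligand JAG1 differed by 0.59 on all 15 and 0.33 on the 13, and CALCRL, the adrenomedullin receptor, by 0.70 and 0.20. FLT4, the VEGF-C receptor of lymphatic vessels, had levels of -6.94, -5.96 and -4.63 in prednisolone animals, against -5.81, -5.52 and -4.71 in controls, a difference of -0.55 on all 15 arrays and -0.76 on the 13 (-1.30 to -0.21). TGFBR2, which signals beside ENG, differed by -0.31 and 0.07, and EPHB4, the venous ephrin receptor, by -0.15 and 0.04. The limma adjusted p of all 6 was 0.883 on the 15 arrays, and DLL4 and FLT4 had 0.931 on the 13. The highest prednisolone values of DLL4 and FLT4 were those of prednisolone 30. FLT4 was also counted among the lymphatic genes described below.

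The ligands of the member receptors were looked up outside the naming rule, after other values had been seen. VEGFA, which binds KDR, differed by 0.35 on all 15 arrays (-0.52 to 1.21) and 0.18 on the 13. VEGFC and VEGFD, which bind FLT4 and KDR, differed by -0.12 and 0.39 on all 15 arrays and by 0.12 and 0.06 on the 13. VEGFB, a ligand of FLT1, differed by 0.15 and 0.12. PGF, a ligand of FLT1, differed by 0.40 and 0.31. ANGPT1, which activates TEK, differed by 0.37 and 0.42 (-0.74 to 1.58 on the 13). Its medians on all 15 arrays were nearly level, -0.94 in prednisolone animals and -0.91 in controls. The lowest control was at -4.60, with a control SD of 1.46. ANGPT2, which can block TEK, differed by 0.33 and 0.25, and was well above background on only 6 of 8 prednisolone and 5 of 7 control arrays. GDF2, the BMP9 that binds ENG, differed by 0.27 and 0.04. None of them passed.

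Of the other endothelial genes, PLVAP, which forms the diaphragms of fenestrated vessels, had levels of -2.86, -2.42 and -2.19 in prednisolone animals, against -3.64, -2.91 and -2.48 in controls, a difference of 0.47 on both sets of arrays. CD93, a lectin-like receptor of endothelium and myeloid cells, differed by 0.44 on all 15 arrays and 0.60 on the 13 (0.27 to 0.94). The prostaglandin transporter SLCO2A1 differed by 0.50 and 0.47. On the lower side, the transcription factors FLI1 and TAL1 differed by -0.27 and -0.25 on all 15 arrays and -0.20 and -0.19 on the 13, and the junction scaffold TJP1 by -0.38 and -0.05. Their limma adjusted p on all 15 arrays was 0.883.

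Downstream of the receptors, the kinase SRC differed by 0.51 on all 15 arrays and 0.31 on the 13, the exchange factor SOS1 by 0.22 and 0.15, and the kinase MAPK3 by 0.30 and 0.19. PIK3R1, the regulatory subunit of PI3-kinase, differed by -0.73 and -0.27, PDCD10 by -0.45 and -0.25, and the GTPase RAC1 by -0.35 and -0.13. None passed the test.

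Genes of other cells were set beside the members over the same animals. On the 13 arrays the 16 genes of pericytes and smooth muscle, the cells that wrap vessels and also the tubules, were all higher in prednisolone animals, against 51.5% of all genes, with a median difference of 0.27. Their mean level ran from -0.05 to 0.35 in prednisolone animals and from -0.38 to 0.18 in controls, so the groups overlapped. On all 15 arrays 7 of the 16 were higher, against 51.9% of all genes. The counts of genes higher in this paragraph come from fits without slide or scan day as a block. Their mean followed that of the 9 endothelial genes across the 13 animals with a Pearson correlation of 0.77, beside 0.73 for the other endothelial genes, 0.63 for 10 Sertoli genes, 0.18 for macrophages and 0.19 for fibroblasts. That order depended on VWF. With VWF left out of the members, the correlations were 0.70 for pericytes and smooth muscle, 0.78 for the other endothelial genes and 0.74 for Sertoli genes. Macrophages then had 0.35 and fibroblasts 0.30. All these list correlations pool both groups, so a difference between the groups enters them. The 7 lymphatic genes went the other way, with 1 of 7 higher on the 13 arrays, a median difference of -0.18 and a correlation of -0.39. Their correlation with the members without VWF was -0.21. Platelet genes, of which 4 of 10 were tested, had a mean between -0.43 and 0.31 in prednisolone animals and between -0.22 and 0.30 in controls. None of these lists had a gene past the threshold, and their part in the endothelial levels was not tested.

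VWF also differed from the mean of the other 8 members in how it followed the spermatid genes. Its brighter probe followed the 12 spermatid genes with a Pearson correlation of 0.62 over the 13 arrays and 0.56 over the 14 with control 17, and the second VWF probe with 0.46 and 0.73. The mean of the other 8 members correlated with the spermatid genes at -0.19 over the 13 arrays. The 7 lymphatic genes correlated with the brighter probe at -0.56 and with the second at -0.43 over the 13 arrays. For pericytes and smooth muscle these correlations were 0.41 and 0.32. Platelet genes, the other known source of VWF, correlated with the brighter probe at 0.16 over the 13 arrays.

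Each member probe was spotted 2 times on an array, which shows how precise a level was. On the 13 arrays the SD of the mean of 2 spots was 0.05 at KDR and 0.08 at TEK, against SDs between animals of a group of 0.22 and 0.25. At ESAM it was 0.29, larger than the 0.23 between animals. The spots of ESAM differed by 1.53 in control 21 and 1.195 in control 20, and by at most 0.49 on the rest of the 13 arrays. The ratio of the SD of the mean of 2 spots to the animal SD was 1.25 at ESAM, 0.69 at PECAM1, 0.62 at ENG and 0.59 at CDH5, and 0.18 and 0.24 at the VWF probes. The differences of ESAM, PECAM1 and ENG described above were therefore measured by the 3 least precise of these probes relative to their spread between animals. At ESAM the low precision rested largely on controls 20 and 21. Raw brightness on the 14 arrays lay between 94.65 and 484.5 units at the 7 member probes other than ENG and VWF, over a local background of 38.75 to 56.75 units.

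**Figure D5:**
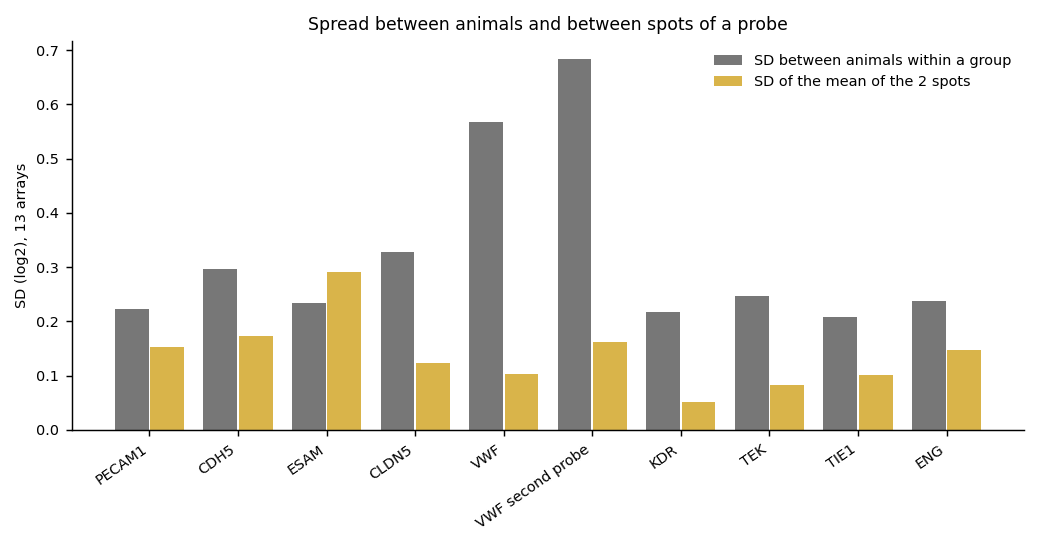
SD between animals within a group and SD of the mean of 2 spots (vertical axis, log2, 13 arrays) for each member probe. The spot bar exceeds the animal bar at ESAM alone, and the 2 VWF probes have the tallest animal bars.

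The genes most like the 9 members were found by correlation of each gene with the mean of the members over the 13 arrays, among 13629 genes. The 8 closest were DBP, a clock-controlled transcription factor, with a Pearson correlation of 0.95, TMEM63A with 0.95, C1H21orf62 with 0.94, PKDCC, a secreted kinase, with 0.94, NPTX1 with 0.93, the membrane protease MMP25 with 0.93, SDF2L1 with 0.92 and TMEM129 with 0.91. With control 17 included, these correlations lay between 0.33 and 0.87, with PKDCC the highest. None of the 8 was on the endothelial or angiogenic lists. Most of this ranking depended on VWF: with VWF left out of the members, only PKDCC (0.88) and TMEM63A (0.88) stayed among the 8 closest. The 59 other endothelial genes had a median correlation of 0.29 with the members, the 35 ligands and co-receptors 0.34 and the 16 genes of pericytes and smooth muscle 0.51, against 0.04 over all genes ranked. All of these points share the array scaling, and the correlations pool both groups, so a difference between the groups enters them.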

How the data were processed

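Total RNA of testis from 8 prednisolone and 7 control animals was measured on 1 array each. The deposited scanner files give spot intensity made by the authors with Feature Extraction 9.5.1.1, per the file headers, background-subtracted and detrended, and not normalized between arrays. The authors' deposited table of intensity values, with a normalization not given in the sources used here (the submitters' processing notes name R 2.11.1), served as an alternative.

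Outlier-flagged spots were masked, spots of a probe averaged, and the log2 signal set relative to each array's 75th percentile. Probes well above background on at least 7 of 15 arrays were fitted with limma 3.58.1 in R 4.3.3 (two-sided, Benjamini-Hochberg over 18492 probes, threshold 0.05). A gene was read through its brightest tested probe. The fit was tested on simulated data. Genes were named with a bovine gene table (ARS-UCD2.0). No source used here names the array's own build, so no coordinates are given. No sequences were used here.

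The members and lists were chosen with earlier results of these data known. Named genes are all members, up to 3 genes per direction with the smallest unadjusted p of each of 3 pathway lists, and the 8 genes most like the members. Slide and scan day came from the file headers, and a scan day is not an extraction or hybridisation batch. Each array held 1 animal by its label, and p-values measure the spread between these arrays. Alternatives covered scaling, background, source of the values, filter, slide, scan day, array weights and leaving out animals. Counting the main fit there were 37 settings, and 7 of the alternatives were added after the data were seen.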

Additional observations from a re-analysis of the deposited data

Results flagged for a closer look

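In 10 of the 22 groups examined (each of the 10 member probes and the mean of the 9 genes, in each treatment group), 1 animal stood farther from its nearest neighbour than Dixon's 95% limit allows. All of these animals were prednisolone 30, at 6 places, or control 17, at 4, and both had already been set apart above. Chance would give about 1.1 if the groups were independent. They are not, because they share the same arrays and the mean is made from the member probes.

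Prednisolone 30 stood above the other prednisolone animals at PECAM1 (a level of 2.096), ESAM (-1.492), CLDN5 (-1.975), TEK (-2.055) and TIE1 (-3.271), and at the mean of the 9 genes (1.604). Control 17 stood above the other controls at PECAM1 (-2.75), CDH5 (-2.503) and KDR (-2.616), and at the mean of the 9 genes (0.8305). No other animal was singled out in this way at any member.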

How the results depend on the processing

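No member gene passed the threshold under any of the 37 settings fitted, the main one included, and the smallest limma adjusted p of a member probe was 0.415. No probe of the array passed either, except that 1 did without prednisolone 30, control 17 and prednisolone 27, and that probe was not a member. Among the differences of single member probes recomputed under the alternatives, 67 turned their sign and the rest kept it. ESAM and the second VWF probe never turned, ENG turned once and PECAM1 3 times. The causes were not tested.

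The median member difference of 0.17 ranged from 0.031 to 0.33 when single animals were left out. It was 0.000497 in the deposited table, -0.059 with slide as a block, -0.60 within slide 1, 0.77 within slide 4, -0.11 with the scan day as a block or within scan day 1 alone, and -0.023 with slide as a block without prednisolone 30 and control 17.

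The differences that turned were as follows. With quantile scaling, CDH5 was at -0.38 and TIE1 at -0.12. With normexp background, KDR was at 0.17. In the deposited table, CDH5 was at -0.030, CLDN5 at -0.16, KDR at 0.034, TEK at -0.054 and TIE1 at -0.069. In that table without prednisolone 30, PECAM1 was at -0.014, CLDN5 at -0.14, KDR at 0.047, TEK at -0.015 and TIE1 at -0.076, and also without control 17, KDR was at 0.24. Without prednisolone 30 and control 17, KDR was at 0.25, with either filter. Without prednisolone 27 too, CLDN5 was at -0.11 and KDR at 0.21. With array weights, CLDN5 was at -0.12 and KDR at 0.24.

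With slide as a block, CDH5 was at -0.22, VWF at -0.44, TEK at -0.15 and TIE1 at -0.059. Within slide 1, PECAM1 was at -0.40, CDH5 at -0.74, CLDN5 at -0.78, VWF at -0.41, TEK at -0.60, TIE1 at -0.61 and ENG at -0.14. Within slide 4, VWF was at -0.49. With scan day as a block, and equally within scan day 1, CDH5 was at -0.37, CLDN5 at -0.087, VWF at -0.30, TEK at -0.11 and TIE1 at -0.13. Without prednisolone 30 and control 17, the slide block gave CLDN5 at -0.11, VWF at -0.21, TEK at -0.18 and TIE1 at -0.18, and the scan day block, and equally the fit within scan day 1, gave CLDN5 at -0.18, VWF at -0.27, KDR at 0.095, TEK at -0.0085 and TIE1 at -0.13. With single animals left out, CDH5 ranged from -0.038 to 0.32, CLDN5 from -0.13 to 0.35, KDR from -0.092 to 0.17, PECAM1 from -0.016 to 0.96, TIE1 from -0.057 to 0.33 and VWF from -0.054 to 0.30.

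No paired analysis was possible because the groups share no animal number. Within slide 1 there are 2 animals of each group, and within slide 4 there are 2 prednisolone animals and 1 control, prednisolone 30 among them. The number of arrays and, at the dimmest probes, a signal not far above background limit the precision.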

Other observations

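Prednisolone 27 was the highest of the 13 animals at 3 of the 9 members, at 14 of the 35 angiogenic ligands and co-receptors and at 19 of the 59 other endothelial genes, against 17.4% of all genes tested. Its mean level was 0.37 for the 9 members, 0.75 for 7 Leydig cell genes and 0.54 for 10 Sertoli cell genes. Without this animal as well as prednisolone 30 and control 17, 8 of 9 members were higher in prednisolone animals, against 50.5% of all genes. The median member difference was then 0.18, and CLDN5 differed by -0.11.

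In the 13 animals the lymphatic list moved against the blood vessel members, more weakly without VWF (Pearson correlation -0.21) than with it (-0.39). Its mean ran from -0.36 to 0.10 in prednisolone animals and from -0.15 to 0.50 in controls, which overlapped, and 1 of its 7 genes was higher in prednisolone animals, on the 13 arrays and on all 15, against 51.5% and 51.9% of all genes. None of the 7 passed in limma. At an unadjusted p under 0.05 there were 2 of 7 on each set of arrays, against 4.92% of all genes on the 13 and 2.42% on all 15. No slide or scan day block entered these counts.

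Genes of the epididymis, of which 5 of 19 were tested, had a mean of 3.04 in prednisolone 30, against 0.03 to 0.18 in the other prednisolone animals and -0.47 to 0.20 in the controls. Only 2 of these 5 genes were well above background on the array of prednisolone 30, whose 75th percentile was 49.8, and 3 of 5 on all of the other 14, so the value of prednisolone 30 rests in part on probes at background.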
